A study of Mus musculus with 2 samples.

Results

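Noncycling neutrophils at the specific-granule stage made up 1100 of the 4887 cell barcodes kept from 2 single-cell libraries of mouse alveolar bone, the bone that holds the teeth. They were chosen by the share of a barcode's unique molecular identifiers (UMIs, tags that mark single captured RNA molecules) that came from 4 sets of genes. S100a8 and S100a9 had to give at least 5% of the UMIs, the azurophil granule proteins Elane, Mpo, Prtn3 and Ctsg under 1%, the division genes Mki67, Top2a, Birc5 and Ube2c under 0.04%, and Camp, Ltf and Ngp at least 3%. Barcodes with fewer than 200 genes or with over 5% of UMIs from mitochondrial genes were left out. These 13 genes therefore define the cells, and their high or low levels are not results.

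Both libraries came from mice 8 weeks old, which the study's methods describe as male C57/B6 J animals, and cells were sorted as F4/80+CD11b+ after collagenase digestion of the bone. The control mice received no force, and the mice of the orthodontic tooth movement (OTM) group had a coil spring pulling the left first molar forward for 7 days. Both groups together had 20 mice, assigned at random, and each condition was 1 library. How many animals gave cells to each library is not given in the sources used here. With 1 library per condition there was no test between conditions, so all intervals below cover counting error only and the condition cannot be told apart from the library.

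Neutrophils are made in marrow in an ordered series of steps, and each step fills the kind of granule for which genes are then transcribed. Azurophil granules with proteases and myeloperoxidase come first, specific granules with lactoferrin, cathelicidin and lipocalin come next, around the point at which division stops, and gelatinase granules and secretory vesicles come last. The transcription factor Cebpe is required for the specific granules. Mature cells then express receptors for chemokines and bacterial products and leave the marrow.

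The 3 genes that set the stage, Camp, Ltf and Ngp, all lay on chromosome 9 (GRCm38). Camp, the gene of the antimicrobial peptide cathelicidin, was at chr9:109847379-109849617 on the minus strand. Ngp, which encodes neutrophilic granule protein, was at chr9:110419747-110423012, and Ltf, which encodes the iron-binding protein lactoferrin, was at chr9:111019271-111042767, both on the plus strand. Lcn2, the gene of the siderophore-binding lipocalin 2, lay on another chromosome at chr2:32384633-32388252 on the minus strand. The sequence next to the start of the 3 stage genes is given 5′ to 3′, because their transcripts are what the cells were chosen by. The letters are from RefSeq (GRCm38.p6) and end where the GENCODE gene begins, and capitals mark a match to TTNNGCAA, a core of the sites that C/EBP factors bind, or to its reverse, TTGCNNAA.
Camp, chr9:109849618-109849706, minus strand: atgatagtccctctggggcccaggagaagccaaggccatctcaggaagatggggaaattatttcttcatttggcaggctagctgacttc
Ltf, chr9:111019042-111019270, plus strand: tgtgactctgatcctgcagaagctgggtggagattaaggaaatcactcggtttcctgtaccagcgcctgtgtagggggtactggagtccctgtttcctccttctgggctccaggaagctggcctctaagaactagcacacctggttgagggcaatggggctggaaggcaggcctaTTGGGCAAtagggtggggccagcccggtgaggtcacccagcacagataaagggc
Ngp, chr9:110419558-110419746, plus strand: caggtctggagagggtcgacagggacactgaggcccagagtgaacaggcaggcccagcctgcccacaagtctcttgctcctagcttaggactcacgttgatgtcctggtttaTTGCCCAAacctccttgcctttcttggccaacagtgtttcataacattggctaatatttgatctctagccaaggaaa
In the 250 bases before the RefSeq start, Ltf held 1 match, 75 bases before the start, and Ngp held 2, at 138 and 11 bases. Lcn2 held 1 match, at 216 bases, and Camp held 0. Of the other genes searched, Fcnb held 2 matches, Retnlg and Mmp8 1 each, and Lta4h, Zmpste24, Chil3 and Gca 0. For Lta4h, Retnlg and Mmp8 the bases after the start did not match a GENCODE transcript. Of all 32851 such windows, 9.56% held a match on either strand. The other sequence searched, GAGGAA (reverse TTCCTC), is a core of PU.1 sites. It was in the windows of Ltf, Lcn2, Lta4h, Zmpste24 and Mmp8 and in 23.3% of all windows. A match in a window is a description and not a measured site.

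The stage held 640 of 1341 neutrophil barcodes in the control library (47.7%, 95% Clopper-Pearson interval 45.0 to 50.4%) and 460 of 1153 in the OTM library (39.9%, 37.1 to 42.8%). Neutrophil barcodes here were all those that passed the S100a8 and S100a9 minimum and the azurophil limit. The others were later noncycling neutrophils with Camp, Ltf and Ngp under 3% (462 control and 474 OTM barcodes), cycling immature neutrophils that met the 3% (220 and 199) and a few cycling barcodes below it (19 and 20). Median depth in the stage was 3418 UMIs and 751.5 genes per barcode in the control library and 6452 UMIs and 1073.5 genes in the OTM library. The OTM cells were thus the more deeply sampled, and the gap in genes was not seen after each cell was thinned to 1500 UMIs, when the medians were 424 and 420 genes. The share of the stage depended on the filter. With a minimum of 200 genes per 1000 UMIs in place of 200 genes, 461 control and only 84 OTM barcodes were left in it, and its OTM share was 18.9%.

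The summed share of Camp, Ltf and Ngp had no gap at the limit. It ran from 3.01 to 21.2% of UMIs over the control cells (median 9.24%) and from 3.00 to 20.8% over the OTM cells (median 8.40%). The nearest barcodes outside the stage were at 2.99% in both libraries. There were 67 control and 53 OTM cells at 3 to 4%, and 74 and 62 noncycling neutrophil barcodes at 2 to 3%. The stage is thus a range set by a limit on a share, and the shape of the distribution was not tested. The 2 libraries shared 6 barcode sequences, and 0 of them belonged to the stage in either library.

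**Figure D1:**
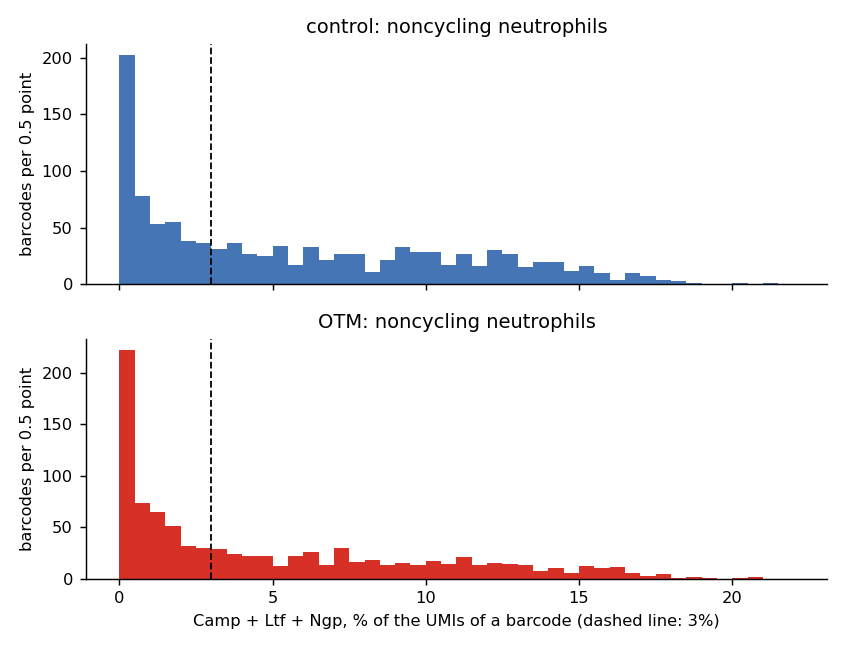
Histograms of noncycling neutrophil barcodes by the share of their UMIs from Camp, Ltf and Ngp, in steps of 0.5 percentage points, for the control library (top) and the OTM library (bottom). The dashed line at 3% is the limit of the stage, and barcodes lie on both sides of it without a gap.

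The name was checked with Lcn2, a specific-granule gene that the selection did not use. Lcn2 had a UMI in all 640 control and all 460 OTM cells, and its level was 8584 and 11561 CPM (UMIs of the gene scaled to a total of 1e6, summed over the cells). In barcodes of the monocyte side (S100a8 and S100a9 under 5% and monocyte markers at 0.5% of UMIs or more) it was 144 and 577 CPM. After thinning to 1500 UMIs, 99.7 and 100% of the stage held an Lcn2 UMI, against 21.0 and 44.7% of the monocyte side, which had median depths of 4031.5 and 7180.5 UMIs. Ly6g, a surface protein of mouse neutrophils, had a UMI in 86.1 and 90.9% of the stage and in 3.84 and 4.85% of the monocyte side. Later neutrophils held both as well: after thinning, Lcn2 was found in 86.4 and 94.9% of them (2941 and 4582 CPM), and without thinning Ly6g in 69.0 and 72.6%. The presence of these genes thus set the stage apart from the monocyte side, and not from later neutrophils.

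GEO's labels call the sorted cells macrophages, and the sort markers were only partly matched by transcripts here. Adgre1, which encodes F4/80, was at 13.5 CPM in the control cells of the stage and 16.7 CPM in the OTM cells, against 124 and 127 CPM on the monocyte side. Csf1r, the receptor of the main macrophage growth factor, was at 32.5 and 30.9 CPM against 246 and 175 CPM. Both genes are among the markers that define the monocyte side, so their higher level there was partly set by that choice. Itgam, which encodes CD11b, had a UMI in 63.4 and 68.7% of the stage. The stage thus carried CD11b transcripts and few F4/80 transcripts.

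Some cells carried markers of other cell types. The 20 monocyte and macrophage markers summed to 2065 CPM in the control cells and 2814 CPM in the OTM cells, with only Ctsk at 0, against 23555 and 16988 CPM on the monocyte side. The monocyte side was chosen by these same markers, so its high sum is not a result. At least 0.5% of the UMIs came from these markers in 19 control cells (2.97%) and 48 OTM cells (10.4%), and those cells were deep, with median depths of 8037 and 11774 UMIs. Scrublet, which looks for droplets with 2 cells, called 51 OTM cells of the stage. It called 0 of all 2835 control barcodes, so doublets in the control library were not removed by it. In the control library, 1 cell drew 5.24% of its UMIs from markers of eosinophils, basophils and mast cells. B cell, platelet and stromal markers summed to at most 32.6 CPM. The T and NK cell list summed to 435 and 268 CPM, nearly all of it from Cd3d (424 and 265 CPM), while Cd8a, Gzma and Ncr1 were at 0 in both libraries.

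The 3 genes that chose the cells are given by library as a description. Camp was at 47062 CPM in the control cells and 33352 CPM in the OTM cells, a ratio of OTM over control of 0.709 (0.703 to 0.714). Ngp was at 41014 and 50993 CPM, a ratio of 1.24 (1.23 to 1.25). Ltf was at 8209 and 8186 CPM, a ratio of 0.997 (0.980 to 1.01).

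Most control cells had more Camp than Ngp, and most OTM cells had less. More Camp than Ngp UMIs were found in 378 of 640 control cells (59.1%) and in 41 of 460 OTM cells (8.91%). There were 1.15 Camp UMIs per Ngp UMI over the control cells and 0.654 over the OTM cells. The sum of the 3 genes was used to choose the cells, but not the balance within it. The same difference stood in the neighbouring stages, with 1.31 and 0.799 Camp UMIs per Ngp UMI in cycling immature neutrophils and 0.570 and 0.310 in later neutrophils. The Camp to Ngp ratio was therefore lower in the OTM library at each of the 3 stages, and within each library it was lower at each later stage.

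**Figure D2:**
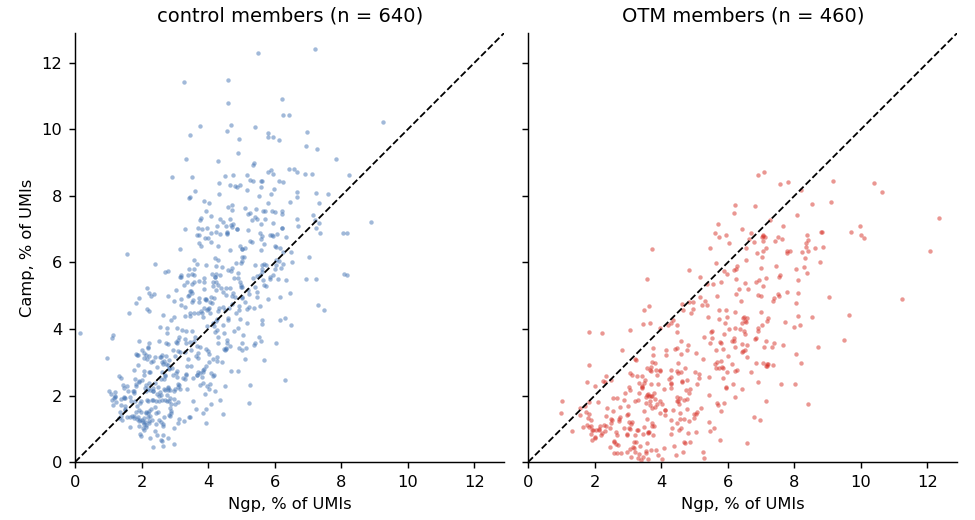
Camp against Ngp, each as a percentage of the UMIs of a cell, for the 640 control cells (left) and the 460 OTM cells (right) of the specific-granule stage. On the dashed line both are equal; 59.1% of control cells and 8.91% of OTM cells lie above it.

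The stage was then placed between its neighbours. Against later neutrophils, 1463 genes had at least 200 UMIs in each library, and 33 of them (2.26%) were over 2-fold higher in the stage in both libraries, while 105 (7.18%) were over 2-fold lower. Because the stages were cut from the same cells by these transcripts, the differences describe the stage and were not tested. The median log2 difference of all compared genes was -0.29 in each library. With totals that left out the 13 defining genes, 51 genes were higher and 29 lower.

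Genes higher in the stage than in later neutrophils included further granule and early neutrophil genes. Fcnb, which encodes the lectin ficolin B, was at 112 and 106 CPM in the control and OTM cells of the stage and at 5.71 and 9.64 CPM in later neutrophils. Orm1, an acute-phase glycoprotein gene, was at 96.0 and 154 CPM against 3.57 and 9.64 CPM. Cebpe, at 103 and 77.0 CPM, was 4.14-fold (2.91 to 6.06) and 6.76-fold (4.51 to 10.5) higher. Fcnb had a UMI in 11.7% of control and 17.0% of OTM cells of the stage, and Cebpe in 25.9% in both libraries.

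Enzyme and inhibitor genes stood in the same set. Lta4h, the enzyme that makes leukotriene B4, was 12.4-fold (6.83 to 25.2) higher in the control library and 5.85-fold (4.32 to 8.09) in the OTM library. Serpinb1a, an inhibitor of neutrophil serine proteases, was 3.66-fold and 5.53-fold higher. Zmpste24, a metalloprotease that processes prelamin A, was 25.1-fold and 7.56-fold higher, Ldhc, a lactate dehydrogenase best known from testis, 11.5-fold and 6.82-fold, and Gca, which encodes the calcium-binding protein grancalcin, 3.28-fold and 3.74-fold. Of 17 other specific-granule genes compared, 7 were over 2-fold higher than in later neutrophils and 0 lower: Lcn2, Orm1, Chil3, Fcnb, Cd177, Serpinb1a and Anxa1. Their list had a median log2 difference of 1.00 and 0.73. Of all compared genes 2.26% were higher and 7.18% lower, with a median of -0.29 in each library.

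Krt81, a keratin gene, had the largest ratio to later neutrophils of all genes ranked. It was at 210 CPM in the control cells and 79.9 CPM in the OTM cells of the stage, against 6.42 and 3.51 CPM in later neutrophils, and at 61.9 and 68.8 CPM in cycling immature ones. In the control library it was thus highest in the stage, 3.40-fold above the cycling cells, and in the OTM library the 2 levels were close (1.16-fold). Its UMIs were found in 18.8% of control and 12.8% of OTM cells, and in 1.98 and 0.971% of the monocyte side.

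**Figure D3:**
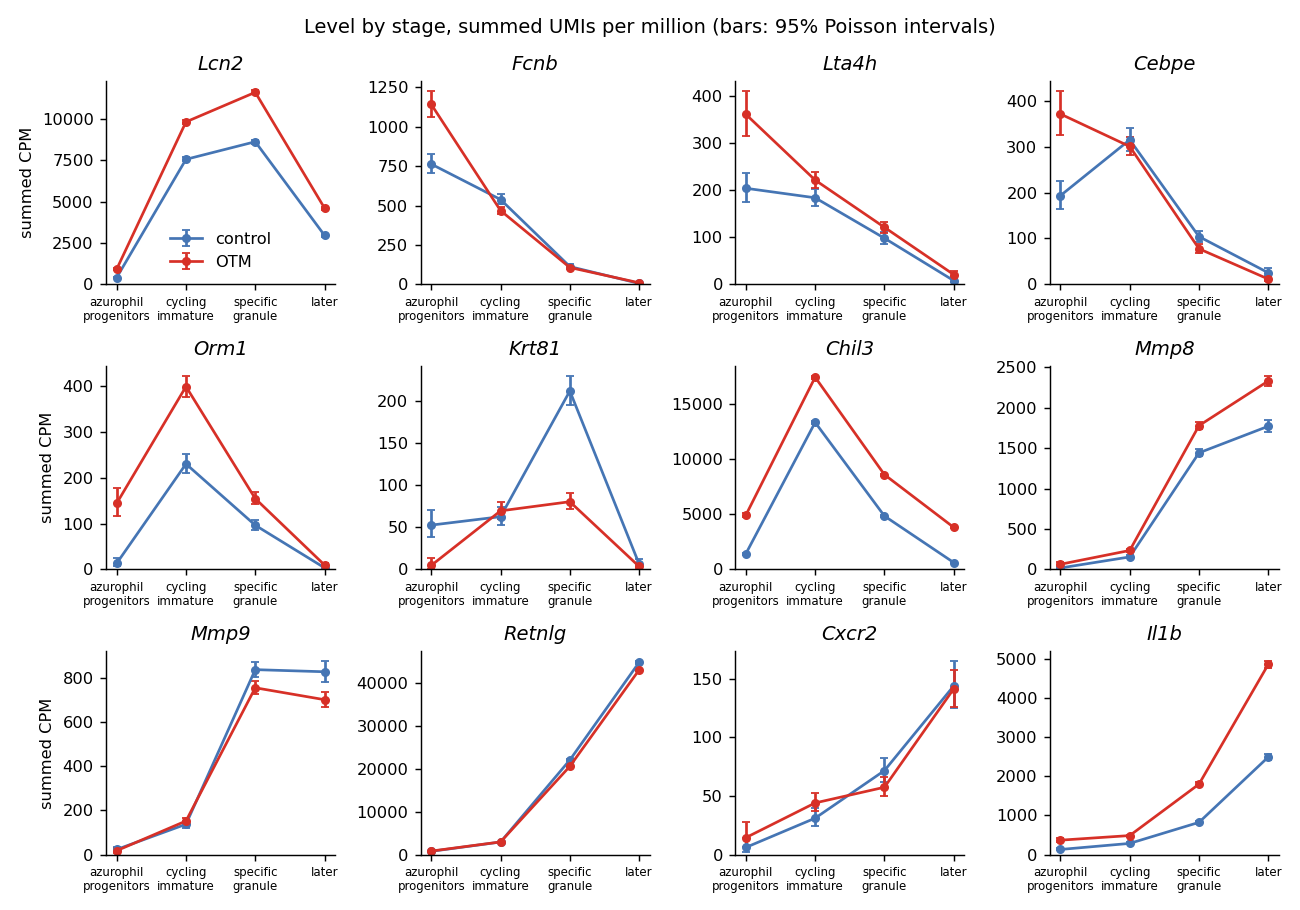
Level of 12 genes in azurophil progenitors, cycling immature neutrophils, the specific-granule stage and later neutrophils, as CPM of UMIs summed over the cells of each stage, in the control (blue) and OTM (red) library, with 95% Poisson intervals for counting error. The totals here hold only genes with enough UMIs in the specific-granule stage or on a gene list, so levels can be higher than the CPM in the text. Fcnb, Lta4h and Cebpe go down from the cycling to the later cells, Lcn2 is highest in the specific-granule stage, and Mmp8, Retnlg and Il1b are highest in the later cells.

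Of 23 mature neutrophil genes compared, 14 were over 2-fold lower in the stage than in later neutrophils and 0 higher. Over all compared genes 7.18% were lower and 2.26% higher. Ccl6, a chemokine gene, was at 386 CPM in both the control and OTM cells of the stage and at 1668 and 1605 CPM in later neutrophils. Il1b, the gene of interleukin 1 beta, was at 817 and 1787 CPM against 2468 and 4816 CPM. Cxcr2, the chemokine receptor that draws neutrophils out of the marrow, was at 71.2 and 57.1 CPM against 143 and 140 CPM.

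Of 14 surface receptor and egress genes compared, 5 were over 2-fold lower than in later neutrophils and 1, Ltb4r1, which encodes a leukotriene B4 receptor, was higher (2.99-fold and 2.37-fold). Csf3r, the receptor for granulocyte colony-stimulating factor, was at 0.375 and 0.386 times its level in later neutrophils, and Clec4d, a C-type lectin receptor, at 0.331 and 0.296 times. Of 18 inflammatory cytokine genes 9 were over 2-fold lower and 0 higher, and of 22 immediate early and heat shock genes 8 and 0. Shares over all compared genes were 7.18% lower and 2.26% higher. Monocyte markers were lower too, with 8 of 9 compared over 2-fold lower, so later neutrophils held more UMIs of that kind (5347 and 4790 CPM over the list). Their part in the result was not tested.

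Against cycling immature neutrophils, which also met the Camp, Ltf and Ngp minimum, 1645 genes were compared. In both libraries 183 (11.1%) were over 2-fold higher in the stage and 158 (9.6%) lower. Division genes were low by the choice of noncycling cells: of 30 division genes outside the selection, 28 were over 2-fold lower and 1, Lmnb1, which encodes lamin B1, was higher (2.94-fold and 2.93-fold). Cdk1, the kinase that drives entry into mitosis, was at 8.76 and 16.1 CPM against 172 and 207 CPM.

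Several genes of the next granules were over 2-fold higher. So was Mmp8, neutrophil collagenase, which is counted here with the specific-granule genes. It was at 1432 and 1767 CPM in the stage against 153 and 233 CPM in cycling cells. Retnlg, a resistin-like secreted protein gene, was at 21873 and 20415 CPM against 2895 and 2918 CPM, and Mmp9, gelatinase B, at 832 and 751 CPM against 136 and 151 CPM. Fpr1, the receptor for formylated bacterial peptides, was 6.44-fold and 5.21-fold higher. Of 10 gelatinase granule and secretory vesicle genes, 5 were over 2-fold higher and 0 lower, and of 18 inflammatory cytokine genes 15 and 0. All genes compared with cycling cells had shares of 11.1% higher and 9.6% lower.

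Of 17 other specific-granule genes 3 (Fcnb, Orm1 and Chil3) were over 2-fold lower than in cycling cells and 1 (Mmp8) was higher, with median log2 differences of 0.19 and 0.02 in the control and OTM libraries. Of 9 azurophil granule genes outside the selection, 2 were lower and 1 higher, with medians of 0.29 and 0.52. Fcnb was at 0.210 and 0.229 times its level in cycling cells, Chil3, which encodes the chitinase-like protein Ym1, at 0.365 and 0.495 times. The transcription factor gene Cebpe was at 0.332 and 0.259 times. Lcn2 differed little, at 1.15 and 1.19 times. Of the 7 NADPH oxidase genes, which encode the enzyme of the oxidative burst, 0 passed 2-fold in both libraries against either neighbour, with Cybb, its catalytic subunit, nearest at 2.00 and 2.05 times its level in later cells. The count was also 0 for the endoplasmic reticulum genes (24 compared against cycling and 19 against later cells). Over all compared genes, 11.1% were higher and 9.6% lower against cycling cells, and 2.26 and 7.18% against later cells.

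The cells of the stage also differed among themselves. They were split by the summed share of Camp, Ltf and Ngp into bands of 3 to 6% (170 control and 131 OTM cells), 6 to 12% (289 and 209) and 12% or more (181 and 120). Over 986 genes compared, 22 (2.23%) went up in order over the bands and were over 2-fold higher in the top band in both libraries, and 104 (10.5%) went down in the same way. The bands are cut from the defining genes, so this too is a description.

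Genes with the largest increase toward high Camp, Ltf and Ngp were largely those that separated the stage from later neutrophils. Fcnb went from 3.38 over 92.2 to 217 CPM over the control bands and from 7.04 over 119 to 174 CPM over the OTM bands. Orm1 went from 5.06 over 77.5 to 187 CPM and from 28.2 over 119 to 338 CPM. Cebpe went from 42.2 over 108 to 139 CPM and from 22.3 over 78.9 to 125 CPM. Lcn2, outside the selection, increased in smaller measure, 1.92-fold (1.85 to 2.00) in the control library and 1.77-fold (1.72 to 1.82) in the OTM library.

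Of 18 mature neutrophil genes compared over the bands 10 were over 2-fold lower in the top band, and of 16 inflammatory cytokine genes also 10. Of 9 gelatinase granule and secretory vesicle genes 1 was lower, near the share of 10.5% over all compared genes. In each of these lists 0 were higher, beside 2.23% of all compared genes. Retnlg went from 39189 to 10253 CPM between the lowest and the highest control band and from 36418 to 6952 CPM in the OTM library, and Mmp8 from 2196 to 833 CPM and from 2592 to 916 CPM. Il1b went from 1083 to 464 CPM and from 3184 to 350 CPM. Monocyte marker genes were also among the largest decreases, such as Cd74, the invariant chain of class II antigen presentation, with 1434, 556 and 268 CPM over the control bands and 859, 673 and 23.2 CPM over the OTM bands. Cells with at least 0.5% of monocyte marker UMIs numbered 7, 11 and 1 in the control bands and 21, 27 and 0 in the OTM bands. Without those cells, Cd74 was at 133, 135 and 106 CPM in the control bands and at 68.3, 77.3 and 23.2 CPM in the OTM bands, while Cyp4f18, which encodes an enzyme that inactivates leukotriene B4, still went from 274 to 43.8 CPM in the control bands. Cd74 is among the markers by which those cells were found, so its lower values after their removal were partly set by that choice.

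**Figure D4:**
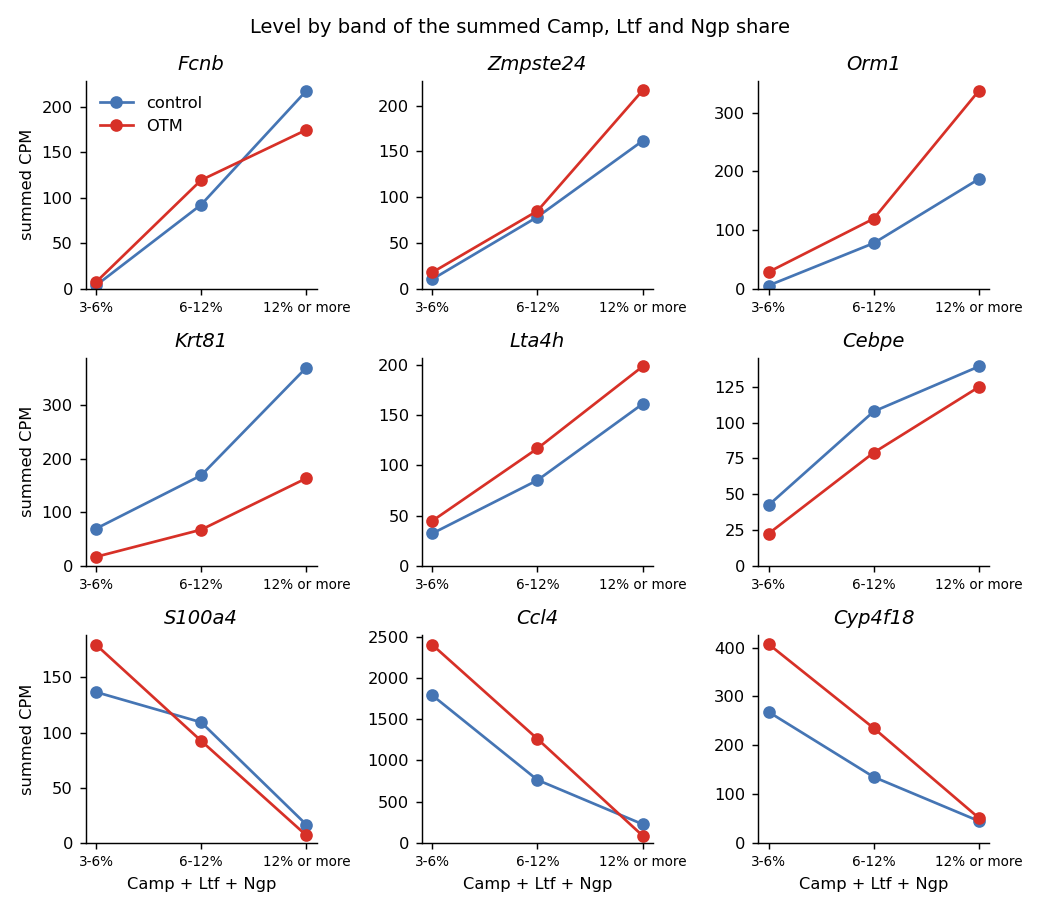
Level of 9 genes, as CPM of UMIs summed over cells, in the 3 bands of the summed Camp, Ltf and Ngp share (3 to 6%, 6 to 12%, 12% or more) in the control (blue) and OTM (red) library. The upper 6 genes are highest in the top band and the lower 3 in the bottom band, in both libraries.

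Between the conditions, 1890 genes were compared over the cells of the stage. Of these, 57 (3.02%) were over 2-fold higher in the OTM library and 29 (1.53%) over 2-fold lower, and the median log2 ratio was 0.04. Depth differed between the libraries too, and with each cell thinned to 1500 UMIs, which leaves fewer genes above the minimum, 24 were higher and 6 lower.

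Saa3, an acute-phase serum amyloid gene, had the largest ratio, from 59.2 CPM in the control cells to 1194 CPM in the OTM cells (20.2-fold, 17.3 to 23.8). It had a UMI in 5.62% of control and 68.9% of OTM cells. The monocyte side of the same libraries went from 351 to 10802 CPM, with a UMI in 16.4 and 87.7% of barcodes, and the part of those transcripts in the result was not tested. In the OTM stage, 10 cells held 60.1% of the Saa3 UMIs, and without the cells with monocyte markers the ratio was 12.6. The log2 ratio of Saa3 was 4.33 over all cells and 3.04 without the cells that Scrublet called.

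A cluster of stefin A genes, which encode small inhibitors of cysteine proteases, and their relatives came next. Stfa2 was at 34.3 and 273 CPM (7.96-fold, 6.43 to 9.94) and Stfa3 at 56.2 and 310 CPM (5.52-fold). With a filter of 200 genes per 1000 UMIs the log2 ratio of Stfa2 was 3.69 in place of 2.99 and that of Stfa3 1.37 in place of 2.46. BC100530 was at 577 and 3511 CPM (6.08-fold, 5.77 to 6.41), with a UMI in 28.3% of control and 63.0% of OTM cells. These genes are near-identical copies, so counts may be split among them and the single values are uncertain. The monocyte side held Stfa2 in 0.116 and 2.91% of barcodes. Of 24 mature neutrophil genes, 8 were over 2-fold higher in the OTM cells and 1, Rsad2, lower, with a median log2 ratio of 0.29. Stfa2 is in this list and had its largest ratio. Over all compared genes 3.02% were higher and 1.53% lower, with a median of 0.04.

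Of 14 surface receptor and egress genes 1 (C5ar1) was over 2-fold higher in the OTM cells and 1 (Cxcr4) lower, with a median log2 ratio of -0.12, and of 11 gelatinase granule and secretory vesicle genes 2 (Fpr1 and Cd14) were higher and 0 lower. Over all compared genes 3.02% were higher and 1.53% lower. Counts of 1 say little about a list of 14 genes. Gpr84, a receptor for medium-chain fatty acids, was at 43.8 and 247 CPM (5.63-fold, 4.65 to 6.88), and Fpr1 at 306 and 829 CPM (2.71-fold, 2.51 to 2.93). Cd14, the co-receptor for bacterial lipopolysaccharide, was at 3527 and 7073 CPM (2.01-fold, 1.96 to 2.05), and its log2 ratio fell under the 2-fold limit in some alternatives, with 0.92 as the lowest. C5ar1, the receptor of complement fragment C5a, was at 420 and 897 CPM (2.14-fold, 2.00 to 2.29). In later neutrophils these 4 ratios were 8.86, 2.86, 2.00 and 1.91, so all 4 were above 1 there too.

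Of 22 inflammatory cytokine genes 5 (Saa3, Il1a, Il1b, Lrg1 and Tnf) were over 2-fold higher and 0 lower, with a median log2 ratio of 0.40. Among all compared genes 3.02% were higher and 1.53% lower, with a median of 0.04. Without the cells with monocyte markers, Il1b (1.81-fold) and Tnf (1.88-fold) no longer passed 2-fold, and without the cells that Scrublet called the log2 ratio of Il1b was 0.69 in place of 1.13. With 200 genes per 1000 UMIs, the log2 ratio of Il1a was 0.82 in place of 1.70. Il1b was at 817 and 1787 CPM (2.19-fold, 2.08 to 2.30), and Lrg1, a secreted leucine-rich glycoprotein stored in neutrophil granules, at 612 and 1338 CPM (2.19-fold, 2.07 to 2.31). Cxcl1, a chemokine that attracts neutrophils, was at 56.2 and 188 CPM (3.34-fold, 2.80 to 4.01), with 70.8 and 69.8% of its UMIs in 10 cells of each library, and its log2 ratio was 1.07 without Scrublet calls in place of 1.74. Ccl4, a chemokine of macrophages, was 1.51-fold higher over all cells and 0.972 without the cells that carried monocyte markers.

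Of 18 other specific-granule genes 0 passed 2-fold in either direction between the conditions, and their median log2 ratio was 0.40 beside 0.04 for all genes. Over all 1890 compared genes 3.02% were higher and 1.53% lower, so a count of 0 of 18 is near that share. Hp, which encodes haptoglobin, was at 1852 and 3245 CPM (1.75-fold, 1.70 to 1.81), Chil3 at 4822 and 8556 CPM (1.77-fold, 1.74 to 1.81) and Lcn2 was 1.35-fold (1.33 to 1.37) higher. Cybb was at 994 and 734 CPM (0.738, 0.699 to 0.779), and Fcnb did not differ beyond counting error (0.947, 0.811 to 1.11), but its log2 ratio turned from -0.08 to 0.83 with a filter of 200 genes per 1000 UMIs. The ratio of Chil3 was 6.08 (5.67 to 6.52) in later neutrophils, above its ratio in the stage. Granule genes at or near 0 were Bpi, with 0 UMIs in both libraries, and Olfm4, with 3 and 5 UMIs.

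Interferon response genes were on the low side. Of 12 compared, 0 had a ratio above 1, 2 (Rsad2 and Bst2) were over 2-fold lower, and the median log2 ratio was -0.52. Among all compared genes 1.53% were over 2-fold lower and 3.02% higher, and the median was 0.04. Bst2 was near the limit, with a log2 ratio of -1.03 that was -0.92 with a Camp, Ltf and Ngp minimum of 2% and -1.73 without Scrublet calls. Isg15, a ubiquitin-like protein induced by interferon, was at 273 and 151 CPM (0.551, 0.492 to 0.617), and Ifi27l2a at 1700 and 852 CPM (0.501, 0.479 to 0.525). Ifit3, below the minimum for comparison, had 84 UMIs in the control cells and 4 in the OTM cells.

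Genes lower in the OTM cells also included a receptor that holds neutrophils in marrow and early response genes. Cxcr4, the receptor of Cxcl12, was at 134 and 44.1 CPM (0.330, 0.272 to 0.400), and Vegfa, the vascular growth factor, at 84.4 and 17.6 CPM (0.209, 0.155 to 0.278). Rhob, a small GTPase gene, was at 66.1 and 20.2 CPM (0.305), and Rgs2, a regulator of G protein signalling, at 163 and 60.3 CPM (0.370). The log2 ratio of Vegfa was -1.45 with 200 genes per 1000 UMIs in place of -2.25, and that of Rhob -1.08 with thinned cells in place of -1.70. Of 24 immediate early and heat shock genes 5 were over 2-fold lower and 1, Socs3, higher. Shares over all compared genes were 1.53% lower and 3.02% higher. In later neutrophils the ratios of Cxcr4, Vegfa, Rhob and Rgs2 were 0.340, 0.227, 0.264 and 0.337.

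Among the remaining low genes were proteases that came mostly from a single cell and hemoglobin genes, which are markers of erythroid cells. Prss34 and Mcpt8, proteases of basophils, had 371 and 293 UMIs in the control cells, of which 369 and 291 came from 1 cell, and 0 and 1 UMIs in the OTM cells. The hemoglobin genes Hba-a1 and Hbb-bs were at 114 and 149 CPM in the control cells and at 30.0 and 58.0 CPM in the OTM cells, and the erythroid list summed to 307 and 102 CPM. On the monocyte side the erythroid list summed to 342 and 97.7 CPM. Krt81, which was not tied to a single cell, was also lower in the OTM cells (0.380, 0.328 to 0.439), with a ratio of 1.11 in cycling immature neutrophils.

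**Figure D5:**
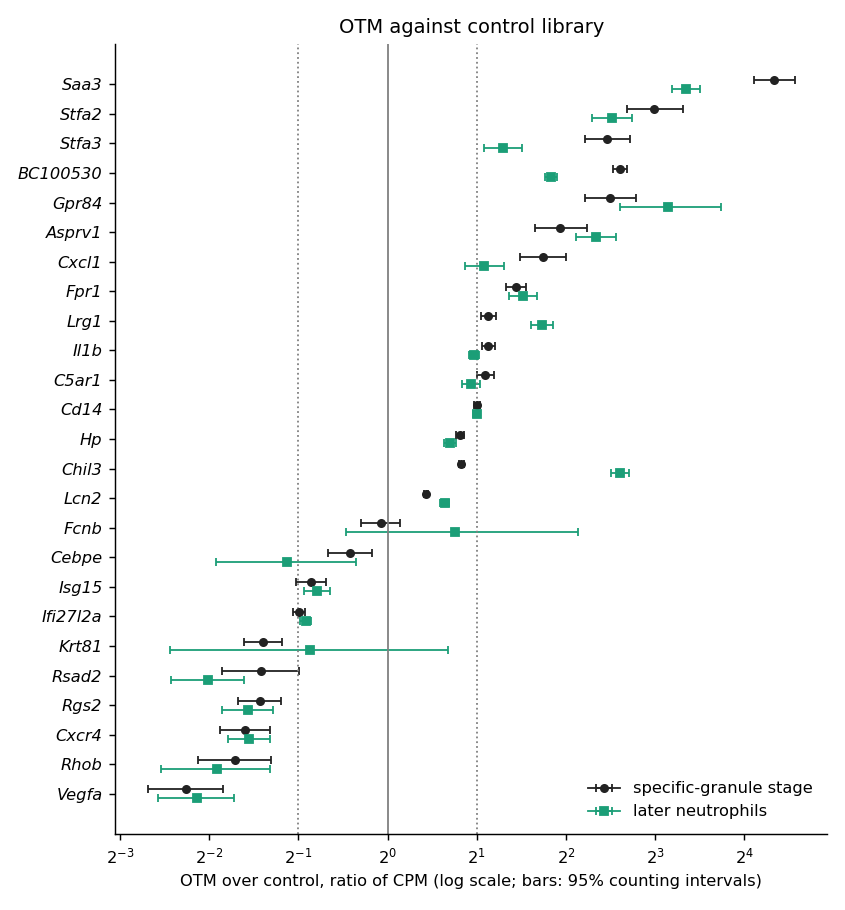
Ratio of CPM in the OTM library over the control library for 25 genes, on a log scale, in the specific-granule stage (black circles) and in later neutrophils (green squares), with 95% counting intervals; dotted lines mark 2-fold. Saa3 has the highest ratio in the stage (20.2) and Vegfa the lowest (0.209), and all but Fcnb lie on the same side of 1 in both groups of cells.

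Ribosomal protein, oxidative phosphorylation and endoplasmic reticulum genes had 0 members past 2-fold between the conditions, of 80, 67 and 25 compared. Over all compared genes 3.02% were higher and 1.53% lower. Their median log2 ratios were 0.21, -0.11 and 0.17. Of 11 transcription factor genes only Xbp1, a regulator of secretory capacity, passed 2-fold, at 29.6 and 65.8 CPM (2.22-fold, 1.72 to 2.90; log2 1.15, and 1.82 thinned), and Cebpe was at 0.745 (0.628 to 0.884). Gfi1, a repressor needed for neutrophil development, had 1 UMI in each library, too few for a statement.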

How the data were processed

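Single cells sorted from mouse alveolar bone were measured with 10x Genomics 3′ chemistry (version 2) in 2 libraries, control and OTM. Per the labels, the authors used Cell Ranger 3.0.0, Seurat 3.0.0 and the mm10 genome. They deposited raw counts of UMIs for 27998 gene rows in 2863 control barcodes (14620877 UMIs) and 2058 OTM barcodes (16500733 UMIs), without normalization. A 3′ tag count was not divided by gene length.

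Barcodes with at least 200 genes and at most 5% mitochondrial UMIs were kept (2835 control and 2052 OTM). UMIs were summed over the cells of a stage and divided by the sum of those cells. Ratios have exact conditional binomial 95% intervals, shares Clopper-Pearson intervals, and 0.5 UMIs were added before a log2. A gene was compared with at least 200 UMIs, and called past 2-fold. Between neighbouring stages or bands a gene had to pass in both libraries. Since each condition had 1 library, no p-value was computed. Named genes were, in each comparison, the 10 highest and the 10 lowest ratios, and members of gene lists written by hand, which are not complete. The members and the lists were chosen with earlier results of these data known. Tools were numpy 2.4.6, pandas 2.3.3 and scipy 1.17.1 in Python 3.11.15, with scanpy 1.11.5 for Scrublet and edgeR 4.0.16 in R 4.3.3 for TMM scaling only. The ratios were tried on simulated counts that were independent and Poisson, as the intervals assume. The simulation left out the clumping of UMIs in single cells, so it checks the computation and not the fit of the intervals to these data. Gene positions are from GENCODE vM21 by Ensembl identifier.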

Additional observations from a re-analysis of the deposited data

Results flagged for a closer look

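Only genes of the hand-written lists and genes named in this report were looked at here, and 208 had enough UMIs in both groups of cells. For 5 of these 208, the interval of the OTM over control ratio lay on opposite sides of 1 in the specific-granule stage and in later neutrophils. This difference between the 2 groups of cells was not tested. With a first limit, that the bounds lie past 1.25 and 0.8, there were 0 such genes, and the limit of 1 was taken after that was seen. Ccl4 had ratios of 1.51 in the stage and 0.765 in later neutrophils, and Clec12a, an inhibitory C-type lectin receptor gene, 1.14 and 0.703. Btg1, which encodes an anti-proliferative factor, had ratios of 1.08 and 0.900, Junb, which encodes a subunit of AP-1, 1.08 and 0.958, and Wfdc21 0.895 and 1.23. Without the cells that carried monocyte markers, the ratio in the stage was 0.972 (0.913 to 1.04) for Ccl4 and 1.00 (0.952 to 1.05) for Btg1. Both intervals then held 1. The ratio was 1.04 (1.0007 to 1.09) for Junb and 1.15 (1.03 to 1.29) for Clec12a.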

How the results depend on the processing

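Alternatives changed 1 choice at a time. The share of the stage was 53.2% of control and 45.3% of OTM neutrophils with a Camp, Ltf and Ngp minimum of 2%, 38.9 and 31.5% with 5%, and 18.9% of OTM neutrophils with 200 genes per 1000 UMIs. It was lower in the OTM library in each of these. Between OTM and control cells, genes over 2-fold higher and lower numbered 19 and 15 with that filter, 119 and 164 with a gene minimum of 50 UMIs, 33 and 8 with 500 UMIs, 168 and 139 at 1.5-fold, and 24 and 6 with cells thinned to 1500 UMIs, where fewer genes reach the minimum. Against later neutrophils, the counts higher and lower were 10 and 55, 75 and 198, 16 and 55, 64 and 305, and 13 and 49 under the same settings in order, 51 and 29 with totals without the defining genes, and 37 lower with TMM scaling. Against cycling immature neutrophils they were 46 and 12, 335 and 497, 106 and 60, 320 and 360, and 79 and 25, and 276 higher with TMM scaling. TMM scaling moved the log2 differences by 0.03 between conditions, by 0.27 and 0.24 against later and by 0.28 and 0.29 against cycling cells, and changes of these sizes apply to all genes of a comparison.

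Of 79 genes with a ratio of OTM over control, 6 whose interval lay off 1 changed sign under an alternative. These were Ccl4 without monocyte marker cells (-0.041), Il1r2 (-0.13) and Prss34 (0.59) with 200 genes per 1000 UMIs, and Il6 (-0.59), Mmp9 (0.016) and Retnlg (0.10) without Scrublet calls. The median log2 ratio changed sign for endoplasmic reticulum genes (-0.11 with the filter per 1000 UMIs, -0.15 without Scrublet calls, -0.036 thinned), division genes (-0.00549 with at most 1 UMI of the cycling genes, -0.014 without Scrublet calls), immediate early genes (0.069 with the filter per 1000 UMIs, 0.042 thinned), monocyte markers (-1.15 without Scrublet calls, -0.26 with a minimum of 500 UMIs), ribosomal protein genes (-0.12 without Scrublet calls), surface genes (0.071 thinned), mitochondrial genes (0.029 with the filter per 1000 UMIs) and all genes (-0.073 without Scrublet calls, -0.014 without monocyte marker cells, -0.041 without the defining genes, -0.0135 with a minimum of 50 UMIs). Scrublet removed cells from the OTM library alone. The cause was not tested. Camp UMIs per Ngp UMI stayed between 1.13 and 1.17 in the control and between 0.622 and 0.681 in the OTM cells. Removal of barcodes with basophil markers was chosen after seeing the data. No paired analysis was possible because each condition had 1 library.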
